A study of Mus musculus with 23 samples.

Results

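The miR-200 family was followed here through both arms of its precursors in mouse brain. The 9 members were the rows of the deposited count tables named miR-200a-3p, miR-200a-5p, miR-200b-3p, miR-200b-5p, miR-429-3p, miR-200c-3p, miR-200c-5p, miR-141-3p and miR-141-5p, of 1915 miRNA names in all. Small RNA was sequenced from brain regions dissected from C57BL/6 mice, in 11 libraries of the genotype Cdr1as knockout and 12 of wild type. Cdr1as is a circular RNA of neurons that carries many binding sites for miR-7. Knockout and wild type were each sampled in olfactory bulb, cortex, hippocampus and cerebellum, with 3 libraries per genotype and region except for 2 in knockout hippocampus, which carry the replicate numbers 2 and 3. The labels give no age, sex or driver of the deletion, and they do not say whether libraries came from separate mice, so a p-value speaks only of the spread among the samples at hand, which may be technical. Circular RNAs are not counted in miRNA tables, so the loss of Cdr1as could not be checked.

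MiRNAs of the miR-200 family mark epithelial cells, where they repress the transcription factors Zeb1 and Zeb2 and so hold back the transition to a mesenchymal state. In the olfactory system they are known for their part in the differentiation of olfactory neurons from progenitors. A miRNA recognises its targets chiefly through its seed, bases 2 to 8, so members of different clusters that share a seed are taken to share targets, and members of one cluster are usually made from one transcript.

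The 5 3p members fall into 2 seed groups that cut across the 2 genomic clusters. The mature sequences (RefSeq, GRCm38.p6) are written 5′ to 3′ with the seed in capitals, since the seed groups are compared throughout the text.
miR-200b-3p: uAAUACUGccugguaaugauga
miR-429-3p: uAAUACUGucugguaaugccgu
miR-200c-3p: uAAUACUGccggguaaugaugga
miR-200a-3p: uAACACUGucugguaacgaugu
miR-141-3p: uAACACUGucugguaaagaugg
miR-200a-5p: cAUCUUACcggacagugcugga
miR-200b-5p: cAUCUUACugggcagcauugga
miR-141-5p: cAUCUUCCagugcaguguugga
miR-200c-5p: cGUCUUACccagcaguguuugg

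The seeds of the 3p groups differ at 1 base, U4C from miR-200b-3p to miR-141-3p, with positions counted from 1 at the 5′ end of the mature miRNA. No other mature miRNA among 1679 in the RefSeq table had any of the 5 seeds. Within a seed group the closest pairs come from different clusters. MiR-200b-3p and miR-200c-3p differ at 2 of 22 positions (U11G, A22G), and miR-200a-3p and miR-141-3p also at 2 (C17A, U22G). How reads that match several miRNAs were counted is not given in the sources used here, so the split between such pairs is uncertain to that extent.

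The precursors of miR-200b, miR-200a and miR-429 form the chromosome 4 cluster. They lie on the minus strand within 1846 bp at chr4:156053905-156055750 (GRCm38), within the gene but outside the exons of the tubulin tyrosine ligase-like gene Ttll10. They also lie inside the non-coding transcript Gm13648, of which an exon overlaps the miR-429 hairpin. The precursors of miR-200c and miR-141 form the chromosome 6 cluster. They lie on the minus strand within 477 bp at chr6:124717914-124718390, inside the antisense transcript Gm15884 and between the protein-coding genes Phb2 and Ptpn6. The miR-141 hairpin overlaps an exon of the transcript Gm29008. The authors' mapping used mm9, per the submitters' processing notes, and these coordinates come from the GRCm38 annotation alone.

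Libraries held 2328929 (cortex, knockout replicate 3) to 13070794 counts (olfactory bulb, wild type replicate 1). Levels are given as CPM, the normalised read count after scaling library sizes by TMM, a method that sets the bulk of miRNAs equal between libraries. All 9 members were among the 669 miRNAs that passed the filter on low counts, miR-200c-5p through the olfactory bulb alone. Differences are on the log2 scale, tested by quasi-likelihood in edgeR and adjusted by Benjamini-Hochberg over the 669, and a miRNA was called where the adjusted p was under 0.05. A fitted difference is given only where each group had more than 3 counts. Neuron-enriched miRNAs (6 of 6 detected) summed to between 118015 and 221000.4 CPM in every library, and no genotype difference in them was called in any region.

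The family was a major product of the olfactory bulb and a minor one elsewhere. It took 3.70%, 3.98% and 2.93% of the reads in the 3 knockout olfactory bulb libraries, and 3.77%, 3.62% and 3.18% in the 3 wild type ones. The 2 genotypes overlapped. In cortex it took 0.00465%, 0.0150% and 0.00889% in the knockout libraries, against 0.169%, 0.0881% and 0.118% in the wild type libraries. Every knockout cortex library was below every wild type one, as the plot of member levels also shows.

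**Figure D1:**
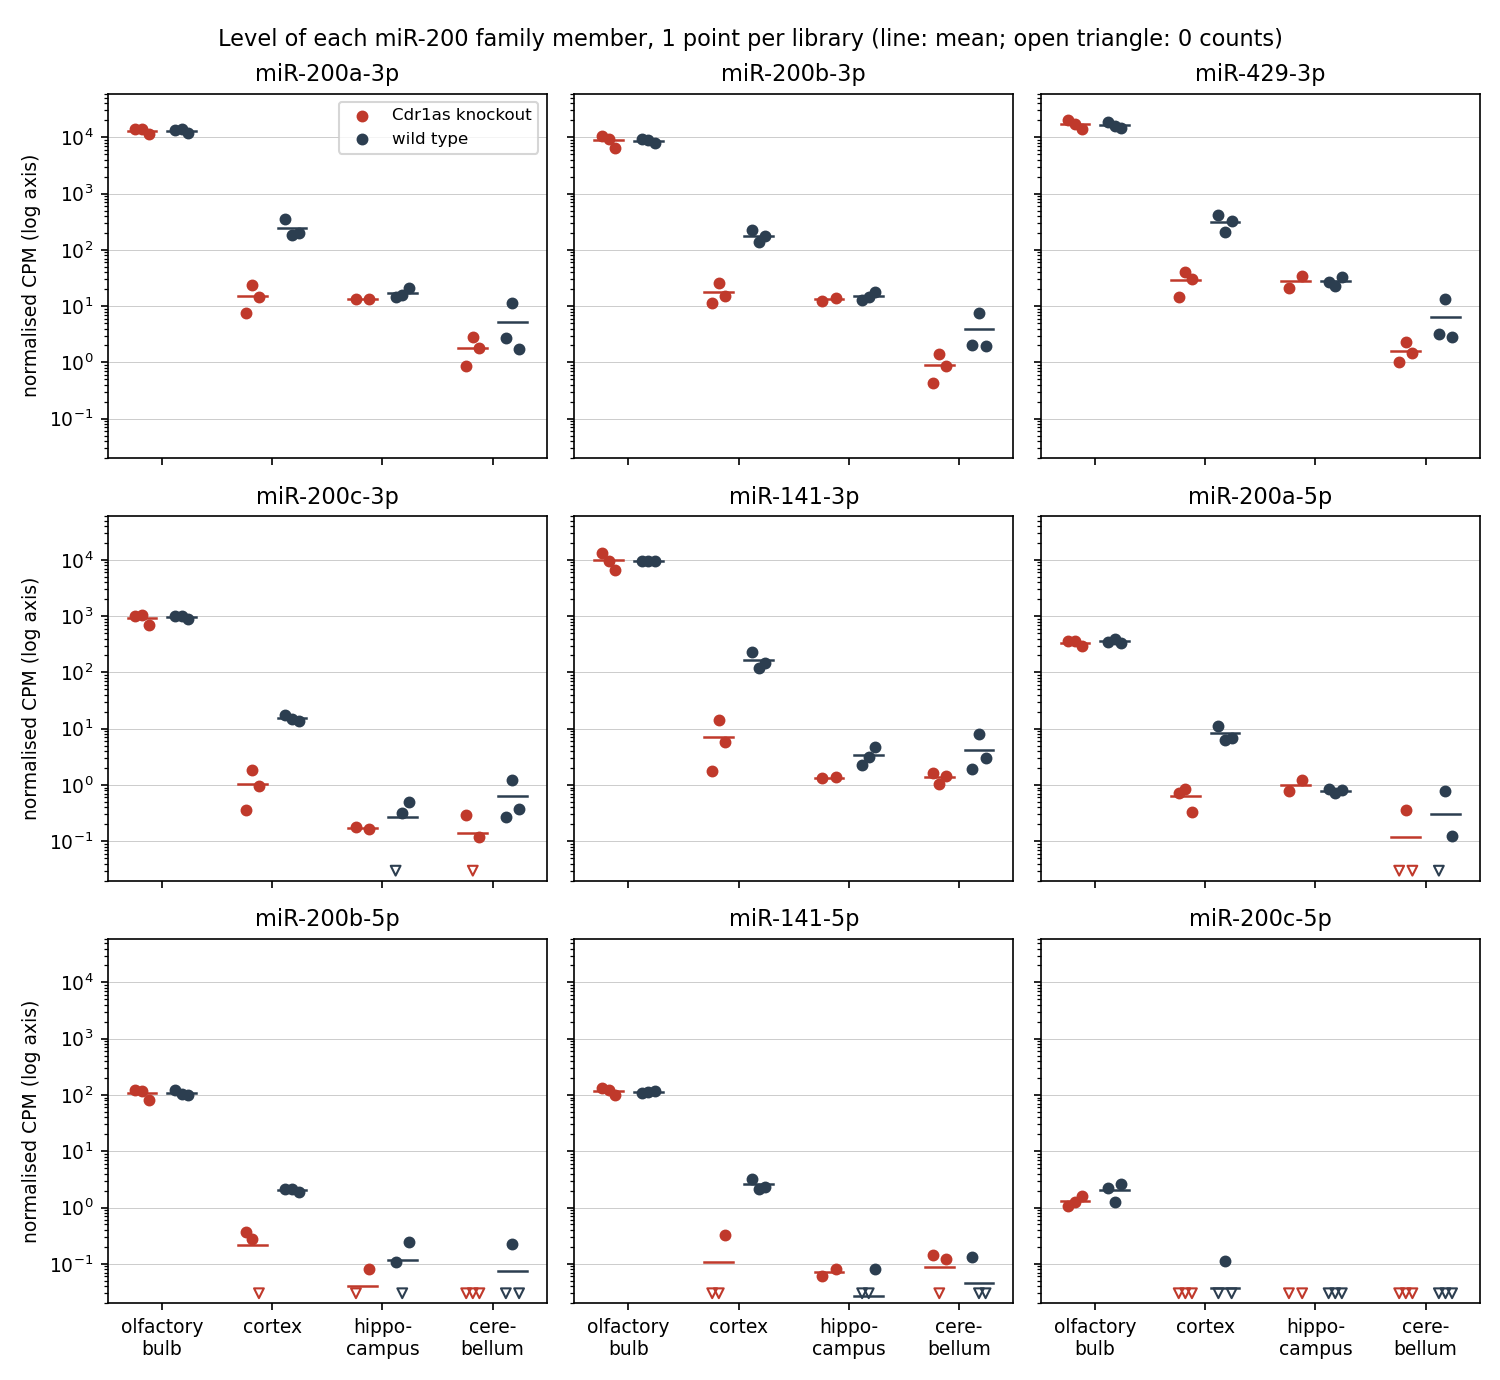
Normalised CPM of each of the 9 members on a log axis, 1 point per library, by region, with Cdr1as knockout in red left of wild type in dark blue; lines are group means and open triangles are libraries with 0 counts. The olfactory bulb stood above the other regions for every member, and in cortex the knockout libraries lay below the wild type libraries for every member but miR-200c-5p, which had 1 count outside the olfactory bulb.

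In the olfactory bulb the most abundant member was miR-429-3p, at 19949, 17377 and 13763 CPM in knockout libraries and 18888, 15817 and 14598 CPM in wild type libraries. The 2 genotypes overlapped, with the lowest value in knockout replicate 3. MiR-200a-3p followed at 13181 ± 1621 CPM in knockout and 13018 ± 1064 CPM in wild type (SD, n = 3 each), overlapping miR-429-3p in knockout libraries alone. MiR-141-3p had 9759.9 ± 3309 CPM in knockout and 9622 ± 75.3 CPM in wild type, and miR-200b-3p had 8873 ± 2206 CPM in knockout and 8769 ± 657 CPM in wild type (SD, n = 3 each). Their ranges overlapped in knockout libraries, so the order of these 2 is not set beyond the spread there. MiR-200c-3p was the least abundant 3p member, at 1011, 1049 and 691 CPM in knockout libraries and 1007, 993 and 889.5 CPM in wild type libraries. All its olfactory bulb values were below every value of the other 3p members there, although it shares a precursor cluster with miR-141-3p.

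Each of the 8 members other than miR-200c-5p was called higher in the olfactory bulb than in the mean of the other 3 regions, both in knockout libraries, where 24.8% of all miRNAs tested were higher, and in wild type libraries, where 26.8% were. In knockout libraries the log2 difference was 11.96 (SE 0.44) for miR-141-3p, 10.83 (SE 0.41) for miR-200a-3p, 10.63 (SE 0.40) for miR-429-3p and 10.54 (SE 0.33) for miR-200b-3p. In wild type libraries it was 9.47 (SE 0.35) for miR-141-3p, 9.36 (SE 0.24) for miR-200c-3p, 8.85 (SE 0.33) for miR-200a-3p, 8.73 (SE 0.32) for miR-429-3p and 8.63 (SE 0.26) for miR-200b-3p. MiR-200c-5p is not counted here or in the next comparisons, since only the olfactory bulb brought it past the filter. It had 16 counts in knockout olfactory bulb and 37 in wild type olfactory bulb, against 0 counts in the other knockout libraries and 1 in the other wild type libraries. In bulk tissue, more cells that make a miRNA and more of it per cell cannot be told apart.

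Against cortex alone, the same 8 members were called higher in the olfactory bulb in knockout mice (26% of all miRNAs tested were), with a log2 difference between 8.65 for miR-200b-5p and 10.32 for miR-141-3p over the 7 members with more than 3 counts in both groups. In wild type mice these 8 were called higher as well (26.2% of all miRNAs tested were), and their differences lay close together, from 5.44 for miR-200a-5p to 5.97 for miR-200c-3p, which is 43.5 to 62.5 times higher in wild type olfactory bulb. Olfactory bulb was also above hippocampus and above cerebellum for these 8 members. Against hippocampus 23.2% of all miRNAs tested were higher in knockout and 26.8% in wild type mice, and against cerebellum 26.5% in knockout and 26.3% in wild type mice. Against hippocampus the log2 difference was 12.81 (SE 0.79) for miR-141-3p and 9.39 (SE 0.54) for miR-200b-3p in knockout mice, and 11.46 (SE 0.62) for miR-141-3p and 9.18 (SE 0.44) for miR-200b-3p in wild type mice. Against cerebellum it was 12.76 (SE 0.67) for miR-141-3p and 13.29 (SE 0.55) for miR-200b-3p in knockout mice, and 11.11 (SE 0.61) for miR-141-3p and 11.10 (SE 0.48) for miR-200b-3p in wild type mice.

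The Cdr1as knockout was set against wild type within each region. In cortex the whole family apart from miR-200c-5p was lower in knockout libraries. MiR-141-3p had 1.81, 14.0 and 5.86 CPM in knockout cortex and 233, 119 and 149.9 CPM in wild type cortex. MiR-200a-3p, which has the same seed, had 7.59, 23.8 and 14.7 CPM in knockout cortex and 348, 182.5 and 198 CPM in wild type cortex. For both, knockout replicate 2 was the highest of its group, and the groups did not overlap.

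Among the members with the other seed, miR-429-3p had 14.8, 41.2 and 29.97 CPM in knockout cortex and 415, 210.2 and 319.8 CPM in wild type cortex. MiR-200b-3p had 11.6, 25.8 and 15.3 CPM in knockout cortex and 222, 139 and 178 CPM in wild type cortex. MiR-200c-3p had 0.361, 1.82 and 0.977 CPM in knockout cortex, from 2, 13 and 3 counts, and 17.7, 14.6 and 14.0 CPM in wild type cortex. Again no knockout library reached a wild type one, and replicate 2 was the highest knockout library in each case.

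In cortex 8 of the 9 members were called, all lower in knockout, beside 2.09% of all miRNAs tested. The same 8 had every knockout library below every wild type one, as had 4.78% of all miRNAs tested. The log2 differences (edgeR with Benjamini-Hochberg adjustment) were -4.46 for miR-141-3p (SE 0.49, adjusted p = 1.91e-06), -3.96 for miR-200a-3p (SE 0.45, adjusted p = 3.28e-06) and -3.76 for miR-200c-3p (SE 0.41, adjusted p = 1.91e-06). By the same test they were -3.45 for miR-429-3p (SE 0.42, adjusted p = 7.99e-06) and -3.33 for miR-200b-3p (SE 0.35, adjusted p = 1.91e-06). The median over the 7 members with more than 3 counts in both groups was -3.54, and the median over all miRNAs tested was -0.02.

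Of the 4 5p arms, 3 were called lower in knockout cortex too. MiR-200a-5p had 0.723, 0.840 and 0.326 CPM in knockout cortex and 11.3, 6.40 and 6.98 CPM in wild type cortex, a log2 difference of -3.54 (SE 0.45, Benjamini-Hochberg adjusted p in edgeR = 1.4e-05). MiR-200b-5p, with 4 counts in knockout and 46 in wild type cortex, had a log2 difference of -2.94 (SE 0.61, Benjamini-Hochberg adjusted p in edgeR = 0.0077). This call was lost without cortex knockout replicate 2, where the edgeR adjusted p was 0.0618. MiR-141-5p had 1 count in knockout and 57 in wild type cortex, a ratio of wild type to knockout of 40.02 with a 95% counting interval of 6.90 to 1608 (Benjamini-Hochberg adjusted p in edgeR = 1.4e-05). MiR-200c-5p, with 0 counts in knockout and 1 in wild type cortex, could not be assessed at this depth. Reads carry no molecular identifiers, so counting intervals here and below cover counting error only.

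**Figure D2:**
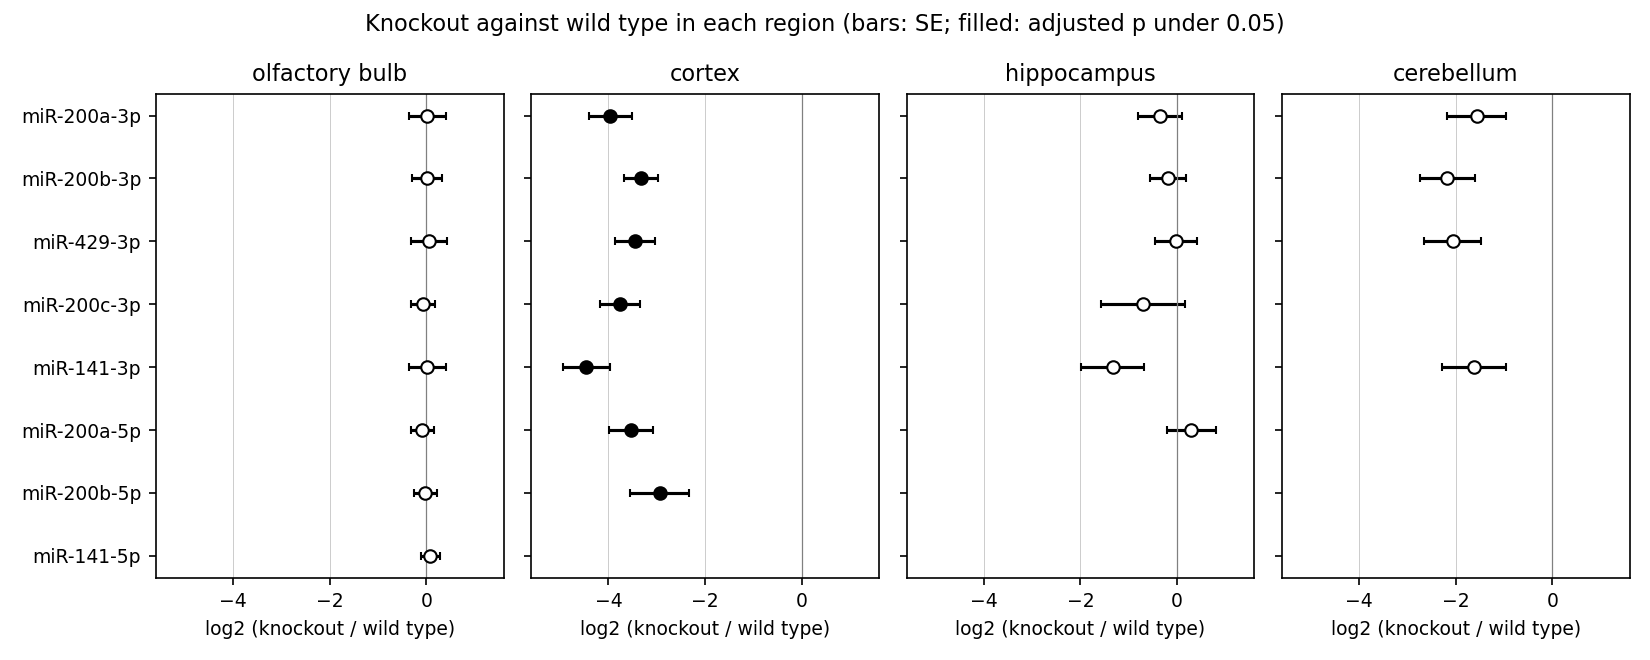
Log2 difference of knockout over wild type for 8 members in each region from edgeR's quasi-likelihood fit, with bars of 1 SE, filled points where the adjusted p was under 0.05, and no point where a group had 3 or fewer counts. In cortex 7 members with a fitted value lay between -4.46 and -2.94, while in the olfactory bulb the 8 members shown lay between -0.08 and 0.08.

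In the olfactory bulb, where the levels were highest and counting error lowest, 0 of 9 members were called (0.149% of all miRNAs tested were) and 0 had an unadjusted p under 0.05 in edgeR. DESeq2 called 0 members there as well. Groups overlapped for 9 of 9 members, while 3.14% of all miRNAs tested had every knockout library below every wild type one. MiR-141-3p had 13105, 9686 and 6489 CPM in knockout and 9602, 9558 and 9705 CPM in wild type olfactory bulb. The wild type libraries lay close together and inside the range of the knockout ones. Its log2 difference was 0.02 with a 95% interval of -0.79 to 0.83. For miR-429-3p the difference was 0.05 (-0.72 to 0.82), for miR-200a-3p 0.02 (-0.78 to 0.81), for miR-200b-3p 0.02 (-0.62 to 0.65) and for miR-200c-3p -0.07 (-0.60 to 0.46). The signs of miR-200a-3p, miR-200b-3p and miR-141-3p turned under other scalings. None of these intervals reaches the differences measured in cortex.

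In hippocampus 0 of 9 members were called in edgeR (0% of all miRNAs tested were, with 39 miRNAs and 0 members at an unadjusted p under 0.05), and 0 members in DESeq2. MiR-429-3p had 21.0 and 34.1 CPM in knockout and 27.4, 22.97 and 33.6 CPM in wild type hippocampus, which overlapped. MiR-141-3p had 1.32 and 1.38 CPM in knockout and 2.23, 3.12 and 4.75 CPM in wild type hippocampus, which did not. The log2 difference was -1.33 for miR-141-3p (95% interval -2.69 to 0.03, Benjamini-Hochberg adjusted p in edgeR = 0.864), but -0.03 for miR-429-3p (-0.93 to 0.88), -0.19 for miR-200b-3p (-0.97 to 0.59) and -0.35 for miR-200a-3p (-1.32 to 0.61). Groups did not overlap for 2 members, miR-141-3p and miR-200a-3p, where 8.82% of all miRNAs tested had every knockout library below every wild type one. Without the filter on low counts, miR-141-3p passed at an edgeR adjusted p of 9.39e-05.

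In cerebellum the family was at its lowest, and 0 of 9 members were called in edgeR (0.149% of all miRNAs tested were), with 13 miRNAs in all and 5 members at an unadjusted p under 0.05. MiR-429-3p had 1.02, 2.30 and 1.45 CPM in knockout and 3.23, 13.2 and 2.86 CPM in wild type cerebellum. MiR-200b-3p had 0.437, 1.42 and 0.847 CPM in knockout and 2.02, 7.68 and 1.99 CPM in wild type cerebellum. The groups did not overlap for these 2 or for miR-141-3p (2.54% of all miRNAs tested had every knockout library below every wild type one). Wild type replicate 2 was the highest library for every 3p member.

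The cerebellar log2 differences were -2.17 for miR-200b-3p (SE 0.58) and -2.07 for miR-429-3p (SE 0.60), each at a Benjamini-Hochberg adjusted p of 0.325 in edgeR, -1.63 for miR-141-3p (SE 0.66) and -1.57 for miR-200a-3p (SE 0.61), each at 1. Without wild type replicate 2 they were -1.19, -0.96, -0.81 and -0.29 in the same order of members. DESeq2 called miR-200b-3p (adjusted p = 0.00489) and miR-429-3p (adjusted p = 0.00841). With a replicate block inside each region, which treats same-numbered libraries as pairs, 4 miRNAs and 0 members were called in cerebellum. The family summed to 4.37, 7.96 and 5.81 CPM in knockout cerebellum and 10.2, 42.4 and 10.1 CPM in wild type cerebellum.

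Averaged over the 4 regions, 5 of 9 members were called lower in knockout (1.35% of all miRNAs tested were), with log2 differences of -1.85 for miR-141-3p (SE 0.28), -1.47 for miR-200a-3p (SE 0.24), -1.42 for miR-200b-3p (SE 0.21) and -1.37 for miR-429-3p (SE 0.23). Whether the genotype effect differed between regions was tested directly. In the F test on 3 differences between the 4 regional effects, 7 of 9 members were called (1.64% of all miRNAs tested were). Adjusted by Benjamini-Hochberg in edgeR, p was 0.000408 for miR-200b-3p, 0.000793 for miR-429-3p and 0.000705 for each of miR-200a-3p, miR-200c-3p and miR-141-3p. Limma-voom called 1 member in this test. The effect in cortex minus the mean effect in the other 3 regions was -3.48 for miR-141-3p (SE 0.59), -3.32 for miR-200a-3p (SE 0.53), -2.77 for miR-429-3p (SE 0.50) and -2.55 for miR-200b-3p (SE 0.44). With miR-141-5p, these were the 5 of 9 members called in that comparison (1.2% of all miRNAs tested were).

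The 2 clusters were not distributed alike over the regions. The chromosome 4 cluster held 78.2% of the family's reads in knockout olfactory bulb (exact 95% binomial interval 78.1 to 78.3) and 78.8% in wild type olfactory bulb (78.7 to 78.9). In cortex it was 87.6% in knockout (85.5 to 89.4) and 80.1% in wild type (79.5 to 80.6), intervals that did not overlap. In hippocampus it was 97.1% in knockout (96.2 to 97.9) and 94.2% in wild type (93.2 to 95.1). In cerebellum it was 72.4% in knockout (63.6 to 80.0) and 76.5% in wild type (72.7 to 80.0). The shares and their intervals sum the counts of a group's libraries and leave out the spread between libraries. By library the share was 94.2%, 85.3% and 89.4% in knockout cortex and 79.7%, 79.9% and 80.9% in wild type cortex.

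Library by library, the ratio of the summed CPM of the chromosome 4 cluster to that of the chromosome 6 cluster was 16.2, 5.81 and 8.41 in knockout cortex and 3.92, 3.97 and 4.24 in wild type cortex. It was 30.4 and 38.9 in knockout hippocampus and 24.9, 15.7 and 13.8 in wild type hippocampus. In neither region did the genotypes overlap, while in the olfactory bulb the ratio of 3.18 to 4.38 in knockout libraries enclosed the 3.26 to 3.94 in wild type libraries. As a sum over chosen members, the ratio was not tested.

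**Figure D3:**
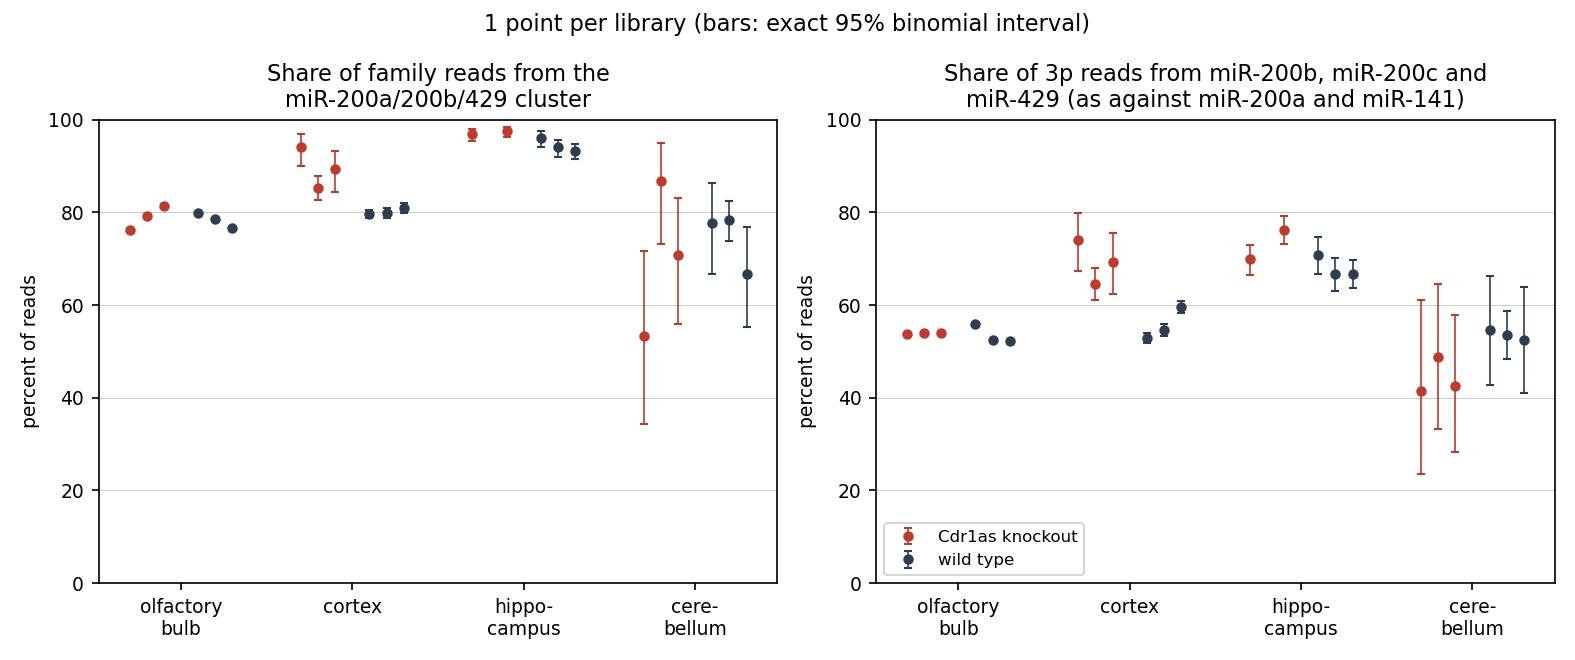
Share of the family's reads from the chromosome 4 cluster (left) and share of the 3p reads with the AAUACUG seed (right), in percent, 1 point per library with its exact 95% binomial interval, by region, with Cdr1as knockout in red left of wild type in dark blue. The pooled cluster share was 87.6% in knockout cortex and 80.1% in wild type cortex, and it was highest in hippocampus in both genotypes.

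Single members were also compared between regions. In knockout mice 2 members were higher in cortex than in hippocampus (7.62% of all miRNAs tested were), and both belong to the chromosome 6 cluster. They were miR-200c-3p at a log2 difference of 2.60 (SE 0.77, Benjamini-Hochberg adjusted p in edgeR = 0.0302) and miR-141-3p at 2.48 (SE 0.65, Benjamini-Hochberg adjusted p in edgeR = 0.0152). MiR-200c-3p had 18 counts in knockout cortex, 13 of them in replicate 2, and 5 in knockout hippocampus. MiR-200b-3p, at 0.43 (95% interval -0.37 to 1.24), miR-200a-3p, at 0.22 (-0.79 to 1.22), and miR-429-3p, at 0.07 (-0.86 to 0.99), did not pass. The 2 calls were lost in limma-voom, and also without cortex knockout replicate 2, where the differences were 1.68 for miR-200c-3p and 1.33 for miR-141-3p, or without either knockout hippocampus library. In wild type mice cortex was above hippocampus for 8 members (11.7% of all miRNAs tested were higher), by 5.65 for miR-200c-3p (SE 0.44) and 5.61 for miR-141-3p (SE 0.50), and by 3.82 for miR-200a-3p (SE 0.44), 3.57 for miR-200b-3p (SE 0.35) and 3.49 for miR-429-3p (SE 0.41). In wild type hippocampus miR-200c-3p had 10 counts, with 1 library at 0. The difference between members was not tested.

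Hippocampus was above cerebellum for the 3p members of the chromosome 4 cluster. In knockout mice the log2 differences were 4.13 for miR-429-3p (SE 0.57), 3.90 for miR-200b-3p (SE 0.53) and 2.89 for miR-200a-3p (SE 0.59), and 4 members were called higher (26.8% of all miRNAs tested were), the fourth being miR-200a-5p. In wild type mice they were 2.09 for miR-429-3p (SE 0.44), 1.92 for miR-200b-3p (SE 0.38) and 1.68 for miR-200a-3p (SE 0.46). These were the 3 members called higher there, beside 28.3% of all miRNAs tested. That count lay near the share of all miRNAs, so it does not set the family apart in wild type mice. MiR-141-3p was not called, at -0.05 in knockout mice (95% interval -1.70 to 1.61) and -0.35 in wild type mice (-1.46 to 0.76), and its sign turned to 0.51 in knockout and 0.38 in wild type mice with library size as the only scaling. Without cerebellum wild type replicate 2 the wild type differences were 3.19, 2.90 and 2.95 for the same 3 members, and miR-200a-5p was called as well.

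Cortex was above cerebellum for 7 members in knockout mice (30.2% of all miRNAs tested were), with 4.33 for miR-200b-3p (SE 0.51) and 2.44 for miR-141-3p (SE 0.64), and for 8 members in wild type mice (31.5% of all miRNAs tested were), with 5.49 for miR-200b-3p (SE 0.40) and 5.26 for miR-141-3p (SE 0.50). Without cortex knockout replicate 2 the knockout count was 3 members, all of them 3p members of the chromosome 4 cluster. The order of the levels in both genotypes therefore began with the olfactory bulb. In wild type mice cortex came second for 8 members, while in knockout mice cortex and hippocampus did not differ beyond their spread for the chromosome 4 cluster.

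The seed groups followed the clusters in part, since miR-200a and miR-141 share a seed across them. The AAUACUG members (miR-200b-3p, miR-429-3p, miR-200c-3p) made up 53.9% of the 3p reads in knockout olfactory bulb and 54.3% in wild type olfactory bulb. In cortex they made up 67.0% in knockout (exact 95% interval 64.2 to 69.7) and 55.3% in wild type (54.6 to 56.0), and in hippocampus 73.0% in knockout (70.7 to 75.2) and 67.7% in wild type (65.7 to 69.6). In cerebellum they made up 44.5% in knockout (35.4 to 53.9) and 53.6% in wild type (49.2 to 57.9), on 119 and 521 reads. These intervals sum the reads of a group and leave out the spread between libraries. The share was higher in knockout than in wild type in every cortex library, at 74.0%, 64.5% and 69.3% against 52.9%, 54.7% and 59.6%. In hippocampus the libraries of the genotypes overlapped, at 69.8% and 76.3% in knockout and 70.8%, 66.6% and 66.7% in wild type.

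The arms of a precursor are counted in the same library, so their ratio does not depend on scaling. For all 4 precursors with both arms among the members the 3p arm dominated. MiR-429-5p, which is not a member, had a single count, in wild type olfactory bulb replicate 2. In the olfactory bulb the 5p arm made up 2.49% of miR-200a reads in knockout and 2.64% in wild type, 1.19% of miR-200b reads in knockout and 1.24% in wild type, and 1.16% of miR-141 reads in knockout and 1.14% in wild type. For miR-200c it made up 0.125% in knockout (exact 95% interval 0.0714 to 0.203) and 0.206% in wild type (0.145 to 0.284), the lowest of the 4.

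Knockout minus wild type, the mean log2 ratio of 5p to 3p in the olfactory bulb was -0.10 for miR-200a (two-sided exact permutation test, p = 0.2), -0.03 for miR-200b (exact p = 0.7), -0.44 for miR-200c (exact p = 0.4) and 0.10 for miR-141 (exact p = 0.7). These were 4 tests in all, and 3 libraries against 3 cannot give a p below 0.1, so no call was possible. Outside the olfactory bulb the 5p share of miR-200a was 4.10% in knockout cortex (2.07 to 7.23) and 3.28% in wild type cortex (2.83 to 3.79), and 6.73% in knockout hippocampus (4.52 to 9.58) and 4.36% in wild type hippocampus (2.89 to 6.28). The genotype intervals overlapped in both regions. In the olfactory bulb those of miR-200a did not (2.42 to 2.56 in knockout, 2.58 to 2.70 in wild type). These intervals sum the reads of a group and leave out the spread between libraries. By library the share there was 2.47%, 2.48% and 2.55% in knockout and 2.55%, 2.75% and 2.71% in wild type. The 5p arm of miR-141 had 1 count in knockout cortex, so its share there was not measurable at this depth.

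**Figure D4:**
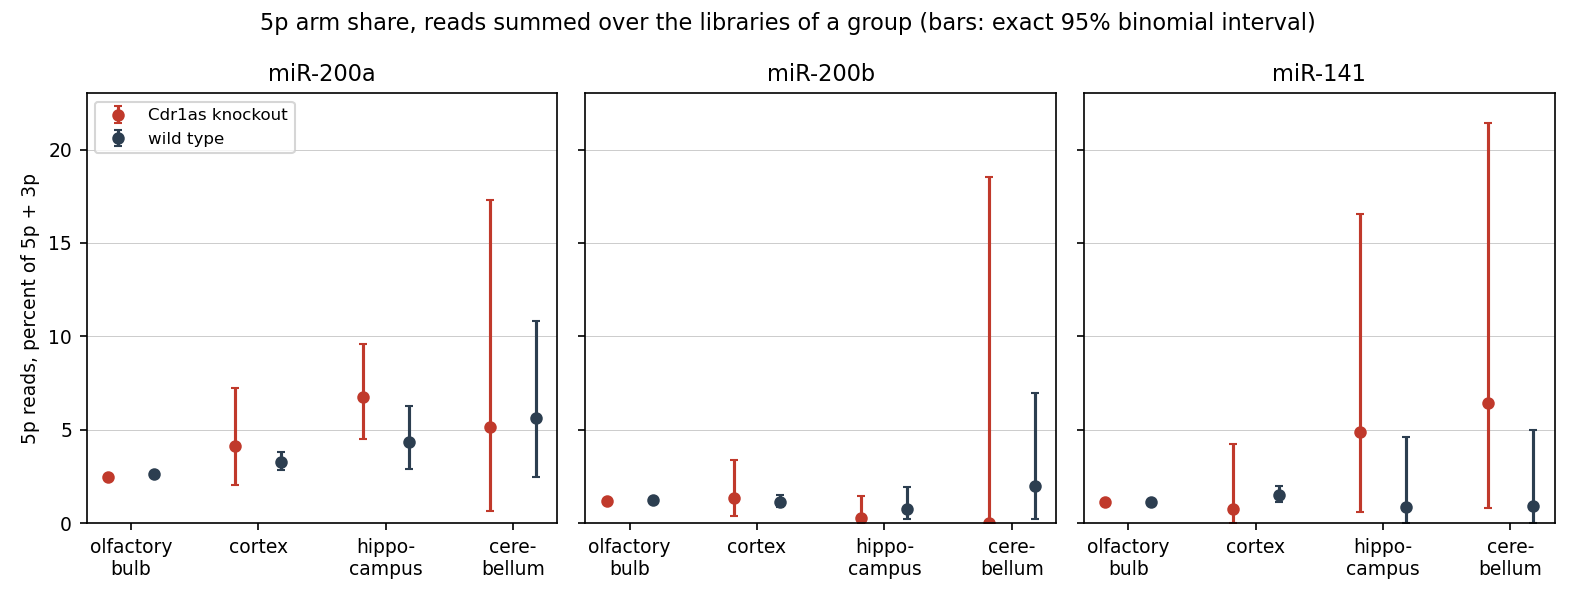
Reads of the 5p arm as a percent of both arms for miR-200a, miR-200b and miR-141, summed over the libraries of a group, with exact 95% binomial intervals, by region, with Cdr1as knockout in red left of wild type in dark blue. For miR-200a the share was 2.49% and 2.64% in olfactory bulb and 6.73% and 4.36% in hippocampus, knockout and wild type, and the intervals widened where reads were few.

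Another set of miRNAs of sensory epithelia, the cluster of miR-183, miR-96 and miR-182, moved with the family in cortex. The summed level of its 6 members was 105 to 339 CPM in knockout cortex and 3013 to 5571 CPM in wild type cortex. Of the 6, 4 were called lower, beside 2.09% of all miRNAs tested called in either direction. MiR-183-5p had 9.03, 34.3 and 27.7 CPM in knockout cortex and 491, 289 and 459.7 CPM in wild type cortex. These did not overlap, where 4.78% of all miRNAs tested had every knockout library below every wild type one. Its log2 difference was -4.13 (SE 0.37, Benjamini-Hochberg adjusted p in edgeR = 2.68e-07). Knockout replicate 1 was the lowest library for miR-183-5p, as it was for all 5 of the family's 3p members.

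Levels were also set against the mean wild type olfactory bulb level of the same miRNA. In knockout cortex the 5 family 3p members stood at 0.0188% to 0.132% in replicate 1, 0.145% to 0.294% in replicate 2 and 0.0609% to 0.182% in replicate 3, while the 3 miR-183 guide arms had medians of 0.0348%, 0.144% and 0.107% in these libraries. In wild type cortex the family stood at 1.83% to 2.67% in replicate 1, 1.24% to 1.58% in replicate 2 and 1.45% to 2.03% in replicate 3, and the miR-183 guide arms at 1.89% to 2.61%, 1.12% to 1.29% and 1.41% to 1.77%. In each wild type cortex library the 2 sets thus lay in nearly one band, within 1.46 times from the lowest to the highest family member, against 2.02 to 7.02 times in the knockout cortex libraries. Counting error was larger in knockout cortex, where miR-141-3p had 10, 100 and 18 counts and miR-200c-3p 2, 13 and 3. In wild type cortex they had 967 to 1652 and 90 to 130 counts. The part of olfactory bulb tissue in the cortex libraries, and whether it differed between knockout and wild type, was not tested.

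**Figure D5:**
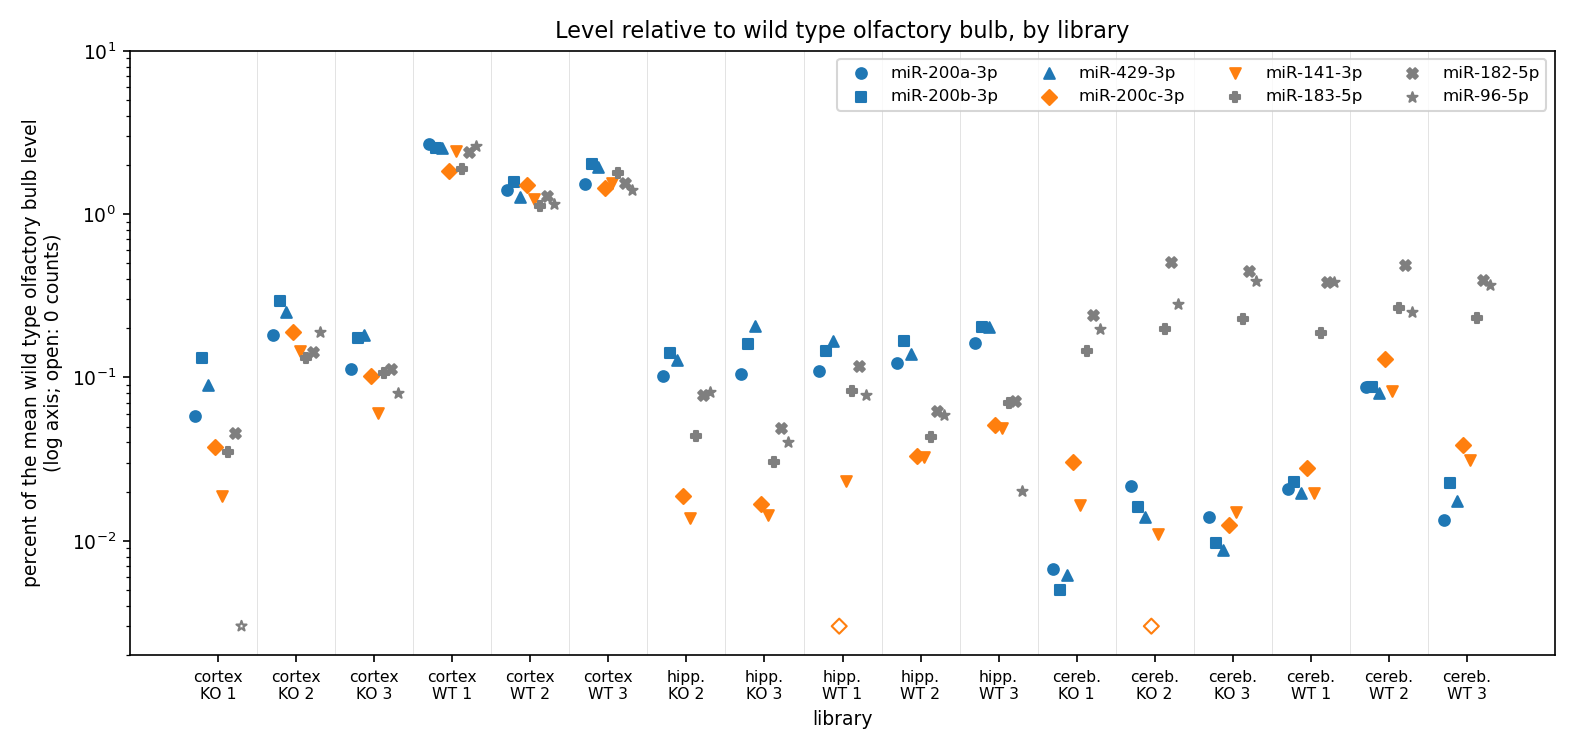
Level of each 3p member and of 3 miR-183 guide arms in every library outside the olfactory bulb, as a percent of the mean wild type olfactory bulb level on a log axis; blue symbols are the chromosome 4 cluster, orange the chromosome 6 cluster and grey the miR-183 cluster, and open symbols are 0 counts. In each wild type cortex library all 8 miRNAs lay between 1.12% and 2.67%, whereas in hippocampus blue lay above orange and in cerebellum grey lay above both.

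In hippocampus the miR-183 guide arms overlapped the range of the family's 3p members in every library, from 0.0303% to 0.0491% against a family range of 0.0143% to 0.207% in knockout replicate 3, for example. The median family 3p member stood at 0.102% and 0.105% of the wild type olfactory bulb level in knockout hippocampus libraries and at 0.110%, 0.122% and 0.163% in wild type libraries, above the miR-183 medians of 0.0784% and 0.0400% in knockout and 0.0831%, 0.0591% and 0.0694% in wild type libraries. In cerebellum the family medians were 0.00672%, 0.0140% and 0.0126% in knockout and 0.0207%, 0.0868% and 0.0227% in wild type libraries, below the miR-183 medians of 0.197%, 0.283% and 0.388% in knockout and 0.381%, 0.267% and 0.367% in wild type libraries. By edgeR, miR-183-5p was lower in hippocampus than in cerebellum, by a log2 difference of -2.36 in knockout mice (SE 0.40) and -1.81 in wild type mice (SE 0.34). Of the family, the chromosome 4 3p members had the opposite direction in this comparison. That direction was common, being called for 26.8% of all miRNAs tested in knockout and 28.3% in wild type mice. MiR-141-3p was not called, at -0.05 in knockout and -0.35 in wild type mice. Cerebellum wild type replicate 2, the highest for the family's 3p members, was also the highest of the 6 cerebellum libraries for miR-183-5p, at 69.1 CPM against 37.9 to 59.1 CPM in knockout and 48.7 and 59.8 CPM in the other wild type libraries. For miR-182-5p it had 1021 CPM, inside the 507 to 1069 CPM of the knockout libraries and above the 814 and 829.6 CPM of the other wild type ones.

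The other lists were counted in cortex in the same way. The list of the epithelial and olfactory programme held 9 miRNAs besides the family, among them members of the miR-183 cluster. Its 4 miRNAs called lower were the same 4 of that cluster given above. No other miRNA of this list was called. Of 6 epithelial and endocrine miRNAs 2 were called lower (2.09% of all miRNAs tested were called in either direction). They were miR-7a-5p and miR-7b-5p, miRNAs of endocrine cells and neurons with binding sites in Cdr1as. This list summed to 367 to 429.05 CPM in knockout and 436 to 485 CPM in wild type cortex. Choroid plexus and ciliated epithelium miRNAs (9 measured) summed to 1968 to 3330.4 CPM in knockout and 2077 to 3022 CPM in wild type cortex, and the lists for neurons, oligodendrocytes, microglia and leukocytes, red blood cells, and endothelial and mural cells also overlapped between genotypes, with 0 miRNAs called. No defining marker of any list was at 0 throughout a region.

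The miRNAs most like the family over the 23 libraries were chosen by Pearson's r of their log2 CPM with the mean of the 3p members. They were miR-490-3p (r = 0.960), miR-183-3p (0.955), miR-592-5p (0.953), miR-183-5p (0.946) and miR-130b-3p (0.945), as a description of libraries that share regions and depth. Their fall from olfactory bulb to cortex was not alike in size. In wild type libraries miR-183-5p averaged 25937 CPM in olfactory bulb and 413 CPM in cortex, and miR-183-3p 213 and 3.53 CPM. MiR-490-3p averaged 431 and 97.5 CPM, miR-592-5p 414 and 149 CPM, and miR-130b-3p 72.1 and 28.3 CPM, in the same order. Between genotypes in cortex these 5 did not move alike either. MiR-183-3p was lower in knockout, with a log2 difference of -3.70 (SE 0.66, Benjamini-Hochberg adjusted p in edgeR = 0.00103), as was miR-183-5p. MiR-490-3p averaged 85.6 CPM in knockout and 97.5 CPM in wild type cortex, a log2 difference of -0.19 (SE 0.19), miR-592-5p had -0.05 (SE 0.09) and miR-130b-3p had -0.21 (SE 0.16), and none of these 3 passed (Benjamini-Hochberg adjusted p in edgeR = 0.997 for each).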

How the data were processed

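The small RNA libraries were made from TRIZOL extracts with a TruSeq kit, per the labels' protocols. The authors deposited 1 table of raw counts for each library, covering 1915 mature miRNA names. Mapping used mm9, per the submitters' processing notes, and aligner, trimming and the treatment of multiply matching reads are not stated there. The members and lists were chosen with earlier results of these data known.

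The deposited counts were tested with edgeR 4.0.16 in R 4.3.3. FilterByExpr (minimum count 10, minimum total 15) kept 669 of 1459 detected miRNAs, which held no less than 99.988% of each library's reads, and TMM factors spanned 0.620 to 1.41. A single quasi-likelihood model with 8 groups covered the 23 libraries, with two-sided F tests and Benjamini-Hochberg adjustment (threshold 0.05). An SE is the log2 difference over the square root of F. A group at 0 counts is bounded at 3 counts. Each comparison names the 9 members, and besides them the 5 miRNAs of highest correlation with the 3p mean (prior count 2) and the miRNAs of the lists. Arm ratios added 0.5 to each count. The model was tested on simulated counts.

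Over 22 within-group library pairs, chi-square per degree of freedom was 28.4 to 242, so none was a duplicate. Same-numbered libraries deviated weakly together in cerebellum (r = 0.116, 0.374 and 0.103 between knockout and wild type deviations). In each other region at least 1 r was below 0.1, while single values reached 0.140 in cortex and 0.139 in olfactory bulb. Whether the numbers pair the libraries was not tested, and the main model does not pair them. Alternatives were other scalings, no filter, DESeq2 1.42.0, limma-voom 3.58.1, replicate blocks, single regions and leaving out each library.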

Additional observations from a re-analysis of the deposited data

Results flagged for a closer look

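The genotype effect differed between the 4 regions for 7 of 9 members, by edgeR's F test with Benjamini-Hochberg adjustment, beside 1.64% of all miRNAs tested, and limma-voom called 1 member. The adjusted p was 0.000408 for miR-200b-3p, 0.000705 for miR-200a-3p, for miR-200c-3p, for miR-141-3p and for miR-141-5p, 0.000793 for miR-429-3p and 0.00105 for miR-200a-5p. In each of them knockout cortex was below wild type cortex in 3 of 3 libraries. The cortex effect minus the mean effect of the other 3 regions was -3.48 for miR-141-3p, -3.32 for miR-200a-3p, -2.77 for miR-429-3p and -2.55 for miR-200b-3p on the log2 scale. In wild type cortex the family's 3p members and the miR-183 guide arms all stood at 1.12% to 2.67% of their wild type olfactory bulb level. Whether knockout and wild type cortex libraries held different parts of olfactory bulb tissue was not tested.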

How the results depend on the processing

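Among 5460 recomputed values, 52 values of single members and 3 arm ratios turned in sign, and 8 members were called in cortex in every alternative that kept all libraries (7 without cortex knockout replicate 2). The cause of the changes below was not tested. With no filter, more miRNAs passed: 4 against 1 in olfactory bulb, 20 against 0 in hippocampus, 12 against 1 in cerebellum, 21 against 10 over the mean of 4 regions, 16 against 8 for the cortex effect over the other regions and 31 against 11 in the F test. Among members, 1 passed in hippocampus and 4 in cerebellum with no filter, and 2 in cerebellum in DESeq2, against 0. DESeq2 called 3 miRNAs in hippocampus and 3 in cerebellum. Limma-voom called 2 miRNAs in hippocampus, 0 members higher in knockout cortex than in knockout hippocampus, and 1 member and 4 miRNAs in the F test. Each region fitted alone gave 0 miRNAs in olfactory bulb and 0 in cerebellum.

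With the replicate number as a block, 2 miRNAs passed in hippocampus. With a replicate block inside each region, 2 passed in olfactory bulb, 2 in hippocampus and 4 in cerebellum. The counts of members called within single regions were unchanged under either block.

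Values near 0 turned in sign. For knockout over wild type in olfactory bulb, RLE scaling gave -0.0089 for miR-200a-3p, -0.014 for miR-200b-3p and -0.015 for miR-141-3p, and DESeq2 gave -0.0089, -0.014 and -0.015. Upper quartile scaling gave -0.0093, -0.016 and -0.021, no filter -0.034, -0.032 and -0.028 (and -0.0022 for miR-429-3p), and the region alone -0.020, -0.024 and -0.026. For miR-200b-3p and miR-141-3p, library size alone gave -0.0077 and -0.016, limma-voom -0.0045 and -0.025, and the block inside the region -0.012 and -0.037. Upper quartile scaling gave 0.015 for miR-429-3p in hippocampus and -0.075 for it in knockout cortex over hippocampus. For miR-141-3p in hippocampus over cerebellum, library size alone gave 0.51 in knockout and 0.38 in wild type mice, and in knockout mice no filter gave 0.074 and DESeq2 0.0030.

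Leaving out 1 library at a time gave 0 to 1 miRNAs in olfactory bulb, 0 to 8 in hippocampus (8 without its wild type replicate 2) and 0 to 1 in cerebellum (0 without its wild type replicate 3). It gave 0 to 2 members and 43 to 92 miRNAs for knockout cortex over hippocampus (43, against 85 with every library, without hippocampus knockout replicate 3) and 3 to 7 members higher in knockout cortex than in knockout cerebellum. In olfactory bulb the difference ranged from -0.25 to 0.24 for miR-141-3p, -0.14 to 0.20 for miR-200b-3p, -0.048 to 0.12 for miR-200a-3p, -0.078 to 0.18 for miR-429-3p, -0.19 to 0.096 for miR-200c-3p, -0.020 to 0.18 for miR-141-5p, -0.13 to 0.0058 for miR-200a-5p and -0.11 to 0.14 for miR-200b-5p. In hippocampus it ranged from -0.45 to 0.29 for miR-429-3p and -0.050 to 0.62 for miR-200a-5p. For knockout cortex over hippocampus it was -0.33 to 0.56 for miR-200a-3p and -0.34 to 0.50 for miR-429-3p. For hippocampus over cerebellum miR-141-3p ranged from -0.17 to 0.066 in knockout mice and -0.69 to 0.47 in wild type mice. The arm ratio in olfactory bulb ranged from -0.063 to 0.028 for miR-200b and -0.045 to 0.25 for miR-141.

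Upper quartile scaling moved the median of all miRNAs by 0.14 in cortex, knockout over wild type, and by up to -0.38 between regions, where library size alone moved it by -0.91 to 0.70. Outside the olfactory bulb, low counts limit the 5p arms and, apart from wild type cortex, the chromosome 6 cluster, with some values at single counts.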
